A study of Mus musculus with 8 samples.

Results

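The genes described here handle iron, copper and zinc. They were taken from the count table by symbol: all Slc30a, Slc39a, Slc11a and Slc31a genes, and 14 named genes (Slc40a1, Trf, Tfrc, Cp, Heph, Fth1, Ftl1, Mt1, Mt2, Mt3, Atp7a, Atp7b, Hamp and Ireb2). This gave 42 of the 23284 genes in the table. Of the 42 genes, 37 passed the filter on low counts and were tested.

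Expression was measured by RNA sequencing in mouse choroid plexus at embryonic stage E18.5. The 4 groups cross region with preparation, and each group holds 2 libraries that the design text calls biological replicates. Telencephalic choroid plexus comes from the lateral ventricles and hindbrain choroid plexus from the fourth ventricle, both dissected from the same brains. Whole tissue carries the strain label CD1. The sorted groups, labelled ICR (CD1), hold epithelial cells that express a red fluorescent reporter, Ttr::RFP, and were collected by fluorescence-activated cell sorting. No treatment or mutated gene is named for any group, and pooling of embryos is not stated. The reporter is read as driven by the promoter of transthyretin (Ttr), so a cell enters the sorted groups only if it is active there. The preparations came from different brains, so sorting, handling and the reporter line cannot be told apart from the preparation.

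Choroid plexus is a sheet of epithelium over a vascular stroma that secretes cerebrospinal fluid and stands between blood and that fluid. Metals reach the brain partly across this epithelium, which has to take them up on one face, bind or store them, and release them on the other. ZIP proteins (Slc39a genes) carry zinc into the cytosol and ZnT proteins (Slc30a genes) carry it out of the cytosol or into vesicles, while metallothioneins bind zinc and copper. Copper enters through CTR1 (Slc31a1) and is pumped into the secretory pathway or out of the cell by the ATPases Atp7a and Atp7b. Iron arrives on transferrin (Trf), is taken up by the transferrin receptor (Tfrc), is stored in ferritin (Fth1 and Ftl1) and leaves through ferroportin (Slc40a1) with the help of the ferroxidases hephaestin (Heph) and ceruloplasmin (Cp).

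Several of these mRNAs carry an iron-responsive element, a short hairpin bound by iron regulatory proteins when cellular iron is low. It is shown because it marks members that can be regulated after transcription. Bound in the 5′ untranslated region the element blocks translation, and in the 3′ untranslated region of Tfrc it protects the mRNA, so that ferritin and ferroportin protein can change without a change in mRNA. The motif searched was a C, then 5 stem bases, the loop CAGTGN, and 5 bases that pair with those of the stem, with G-T pairs allowed. It was found in the 5′ untranslated region of 28 of 20529 mouse genes (0.136%) and in the 3′ untranslated region of 127 of 20920 (0.607%), on the sense strand of GENCODE M21 transcripts. Among the 42 genes it was found in Fth1, Ftl1 and Slc40a1 (5′) and in Tfrc (3′). All 5 stem pairs and the loop CAGTGN were required, so an element with an unpaired stem base or another loop would be missed. The other members, Slc11a2 among them, therefore cannot be said to lack an element. The 29-base sites follow, with the 6 loop bases in capitals.
Fth1, 5′, from base 93 of the transcript: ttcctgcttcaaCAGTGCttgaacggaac
Ftl1, 5′, from base 84: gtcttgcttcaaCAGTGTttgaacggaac
Slc40a1, 5′, from base 96: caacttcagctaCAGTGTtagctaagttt
Tfrc, 3′, from base 3321: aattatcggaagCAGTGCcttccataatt
Tfrc, 3′, from base 3700: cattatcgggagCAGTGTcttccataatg
Tfrc, 3′, from base 3765: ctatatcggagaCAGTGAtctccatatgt
Tfrc, 3′, from base 3812: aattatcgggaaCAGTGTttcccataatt

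Tfrc held 4 of the 7 sites found, and it may hold others that the search missed. RNA sequencing reads the level of these mRNAs and not how they are translated.

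Mt1 and Mt2 are neighbours on chromosome 8 and are induced by zinc through the factor MTF1, which binds metal response elements. Their promoters were searched because both genes had lower values in the hindbrain libraries, as described below. The core was searched as TGCACNC or TGCGCNC on both strands, overlapping matches counted, in RefSeq windows of 300 bases (250 before to 50 after a start, GRCm38.p6). Of 32851 windows 25.7% held at least 1 match, 1.97% at least 3 and 0.517% at least 4. Mt2 had 4 matches, 3 of them before the start. Mt1 had 3, at positions -23, 3 and 21 from the annotated start, and Mt3 had 1, at position 28. As 2 of the 3 Mt1 matches lie after the start used, that start may not be the main one of the gene, which was not checked. Windows were present for 34 of the 42 genes, and 19 of their 42 windows (45.2%) held a match. A match describes the letters of a window and says nothing of binding. The 250 bases before the Mt2 start (chr8:94172368-94172617, plus strand) follow, with the 3 matches in capitals.
Mt2: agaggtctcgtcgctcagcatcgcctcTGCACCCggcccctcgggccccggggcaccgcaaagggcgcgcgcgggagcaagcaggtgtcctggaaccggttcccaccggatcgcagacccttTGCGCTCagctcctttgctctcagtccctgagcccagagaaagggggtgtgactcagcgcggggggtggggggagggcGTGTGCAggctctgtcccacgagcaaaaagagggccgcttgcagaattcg

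Total counts ran from 8849053 to 31613434 per library. The metal handling genes took 0.439% to 0.553% of them, Ttr 15.7% to 23.6% and the ribosomal RNA repeat Rn45s 4.07% to 13.9%. Replicates of every group differed by more than sampling noise, most of all the hindbrain sorted libraries (chi-square per degree of freedom 64.5, against 5.42 to 16.7 in the other groups). The epithelial identity of the sorted libraries was described with 10 choroid epithelial markers. For telencephalic cells 7 were higher and none lower than in whole tissue, and for hindbrain cells 5 and 0. Their median log2 fold changes were 0.365 and 0.299. Of all tested genes 22.4% and 22.1% differed in these comparisons at the threshold given below. Ttr is among the markers, and as cells were sorted on its reporter it is no independent check. All 10 endothelial markers were lower in both sorts. Macrophage, mesenchymal and mural markers were not removed equally. The 10 macrophage markers summed to 34.8 and 59.7 CPM (reads of a gene relative to the scaled library size) in telencephalic sorted cells but to 212 and 176 in hindbrain sorted cells, against 154 and 168 in telencephalic and 211 and 211 in hindbrain whole tissue. The 8 mural markers summed to 59.9 and 56.8 in telencephalic and to 269 and 244 in hindbrain sorted cells. These values stand beside the results they move with below. In all these libraries fewer cells of a type and less RNA per cell cannot be told apart.

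Levels are CPM values, counts relative to library sizes scaled by the TMM method. Two-number values give replicates 1 and 2. Fold changes are log2 values ± standard error from edgeR's quasi-likelihood fit, and a gene is called where its Benjamini-Hochberg adjusted p over all 15698 tested genes was below 0.05. In whole tissue 4 of the 37 tested genes were called between regions, 1 higher and 3 lower in hindbrain, where 5.79% of all genes were called. In sorted cells 11 were called (7 higher, 4 lower), against 15.2% of all genes, and 1 gene was called for a difference between these region effects, against 1.34%. As shares of the 37 genes these counts are 10.8%, 29.7% and 2.7%. The median fold changes of the 37 genes were -0.092, -0.151 and -0.039, beside 0.005, -0.001 and 0.004 for all tested genes. The region groups did not overlap for 21 of the 37 genes in whole tissue and for 24 in sorted cells. That share was not computed over all genes, nor was the share with the same direction in all pairs. Such patterns are given below as descriptions and not as results.

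In all, 12 genes were called in at least 1 region comparison and 25 in neither. Slc39a10, the zinc importer ZIP10, was lower in hindbrain and Slc31a1, the copper importer CTR1, was higher, in both preparations. Trf moved in opposite directions in whole tissue and in sorted cells. The whole-tissue count was 1 without telencephalic replicate 1 or hindbrain replicate 2, 2 without telencephalic replicate 2 or hindbrain replicate 1 and 9 without either hindbrain sorted library, which enters through the shared spread. The sorted count was 5 without telencephalic sorted replicate 1, 6 without hindbrain sorted replicate 1 and 14 without hindbrain sorted replicate 2. With the brain as a replicate block the counts were 5, 15 and 2. Over all genes the block gave 1195, 2943 and 337 calls, against 909, 2383 and 211 without it.

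**Figure D1:**
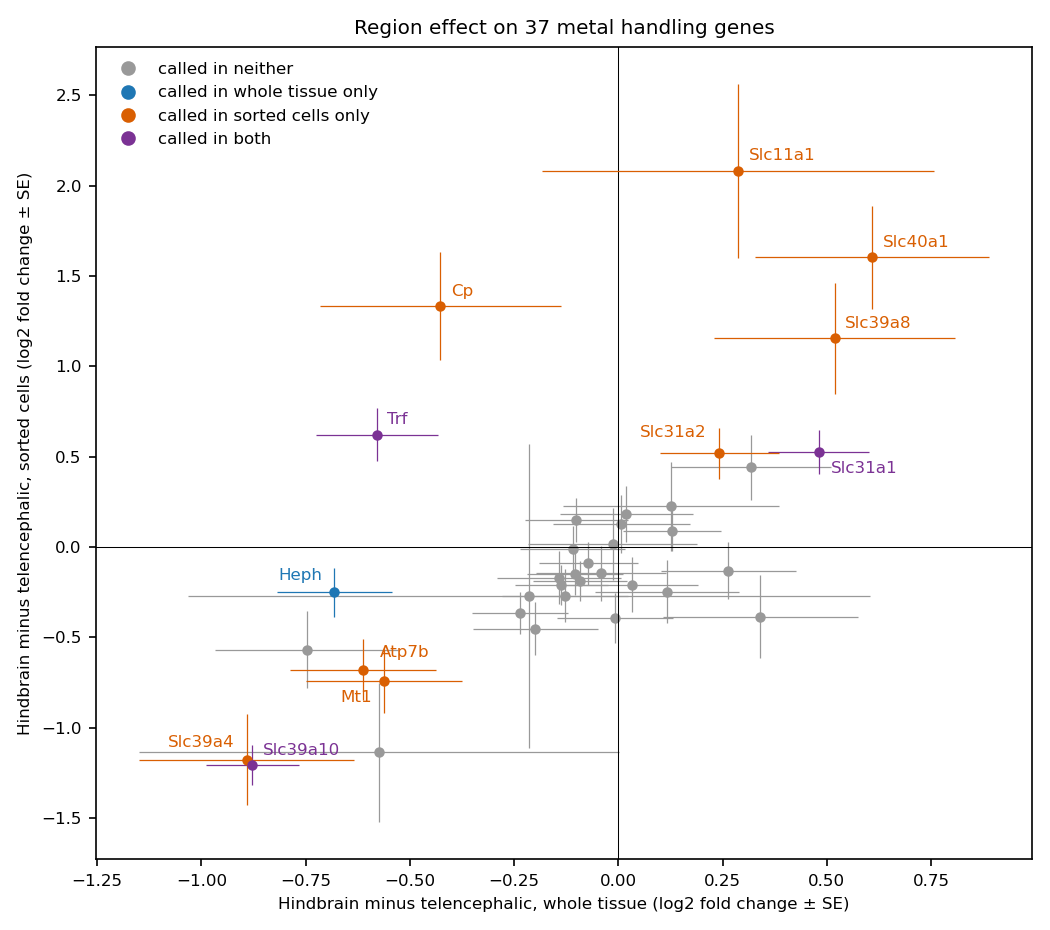
Hindbrain minus telencephalic log2 fold change in whole tissue (x axis) and in sorted cells (y axis) for the 37 tested genes, with bars of 1 standard error and colours for the comparisons in which a gene was called. Slc39a10 and Slc31a1 lie in the same direction in both, Trf and Cp lie at the upper left, and most of the uncalled genes sit near the origin.

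Between genes, levels were compared per kilobase of the main protein-coding transcript in GENCODE M21, which is not the annotation of the authors' counts. On this scale the light ferritin chain gene Ftl1 was highest at 1105 CPM per kb over the 8 libraries, followed by the heavy chain gene Fth1 at 339.5, Slc31a1 at 312 and Atp7a at 139. Mt1 (46.8) and Mt2 (39.3) came next, and the highest zinc transporters were Slc39a13 (36.5), Slc39a12 (30.0) and Slc39a10 (24.7). Slc30a4 was the highest zinc exporter at 17.8. Among the iron genes Trf stood at 22.0, Cp at 15.8, Heph at 12.01, Slc40a1 at 5.17 and Tfrc at 3.21. Ferritin genes have processed copies in the genome, and how reads matching both a gene and its copies were counted is not given. The levels of Ftl1 and Fth1 could therefore be too high or too low.

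At the other end, 5 genes were too low to test. Hamp, which encodes hepcidin, the hormone that removes ferroportin from the membrane, had 6 counts in all 8 libraries and 0 in 4 of them. Slc30a3, the exporter of synaptic zinc vesicles, had 3 counts, and Slc30a8, the exporter of insulin granules, had 39. Slc30a2 had 54 counts and Slc39a2 had 58.

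**Figure D2:**
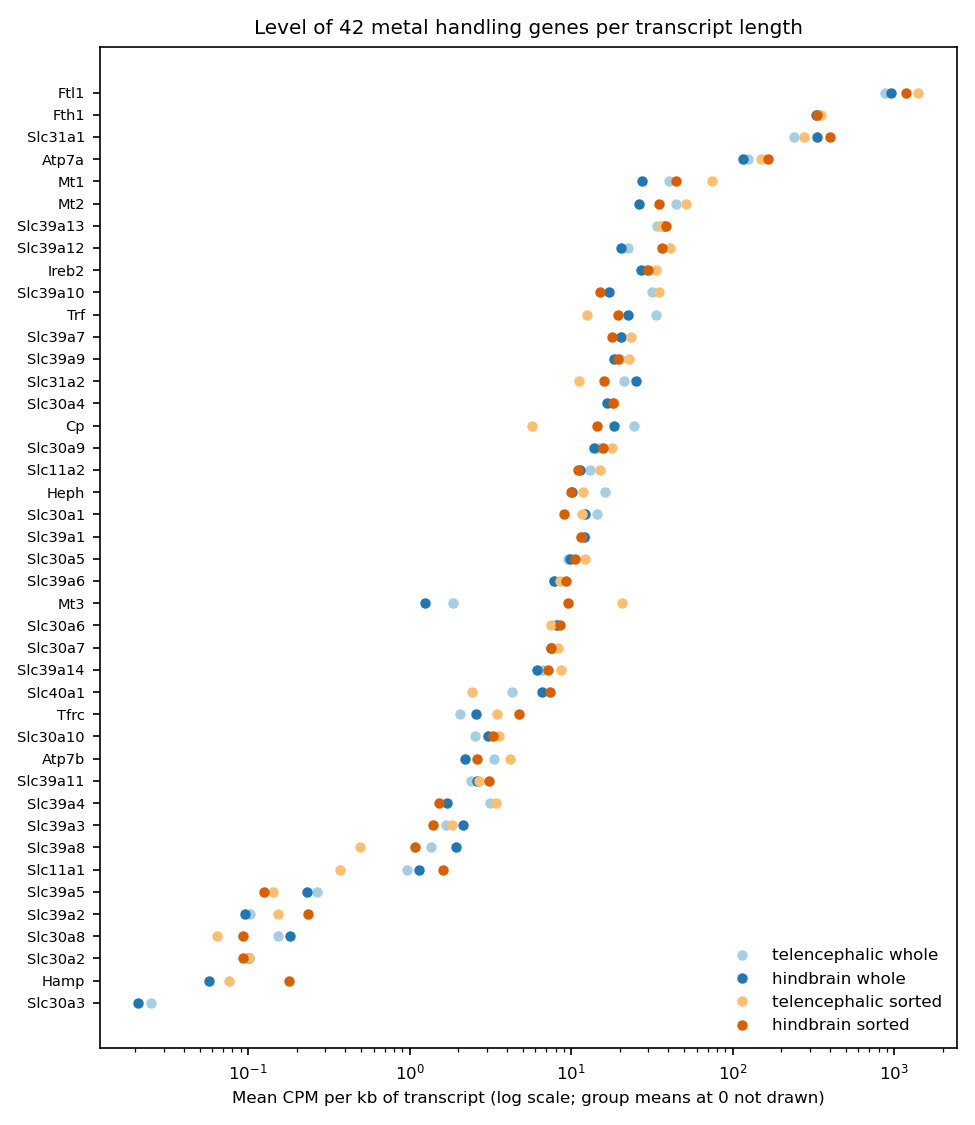
Group means of the 42 genes in CPM per kb of transcript on a log axis, ordered by the mean over all libraries, with a colour for each group. Ftl1, Fth1, Slc31a1 and Atp7a lie above 100 in every group, and Mt3 and Cp show the widest gaps between groups among the genes in the middle of the order.

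Among the zinc importers Slc39a10 differed between regions in both preparations. Of 13 tested Slc39a genes, 1 was lower in hindbrain whole tissue, and in sorted cells 2 were lower and 1 was higher. These are 7.69% and 23.1% of the 13 genes, beside 5.79% and 15.2% of all tested genes. Slc39a10 (ZIP10, a plasma membrane zinc importer) stood at 173 and 175 CPM in telencephalic whole tissue and at 91.8 and 97.4 in hindbrain whole tissue. In sorted cells it stood at 187 and 196 in telencephalic and at 87.95 and 78.05 in hindbrain libraries. No hindbrain library came near a telencephalic one, and the lower value was the hindbrain one in 4 of 4 pairs of libraries from the same brain. The fold change was -0.88 ± 0.11 in whole tissue (1.84-fold lower, adjusted p = 0.000406) and -1.21 ± 0.11 in sorted cells (2.31-fold lower, adjusted p = 1.606e-05). The difference between these effects was -0.33 ± 0.15 (adjusted p = 0.545). Both calls held under all 15 alternative settings. Sorting did not shift the gene past the threshold in either region (0.14 ± 0.11 and -0.19 ± 0.11).

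Slc39a4 (ZIP4, the importer known for zinc absorption in the gut) was a low-level gene with a similar pattern. Its CPM was 10.5 and 6.81 in telencephalic and 4.6 and 4.82 in hindbrain whole tissue, and 8.7 and 10.2 in telencephalic and 3.86 and 4.48 in hindbrain sorted cells. The groups did not overlap in either preparation. In sorted cells it was 2.26-fold lower in hindbrain (-1.18 ± 0.25, adjusted p = 0.00734), a call that held under all 15 alternatives. In whole tissue the value was -0.89 ± 0.26 and missed the threshold (adjusted p = 0.0672), and it was -0.53 without telencephalic whole replicate 1.

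Slc39a8 (ZIP8), which carries zinc, manganese and ferrous iron, went the other way. It reached 4.28 and 5.35 CPM in telencephalic and 7.22 and 6.47 in hindbrain whole tissue, and 1.36 and 2.11 in telencephalic and 3.93 and 3.67 in hindbrain sorted cells. All 4 hindbrain libraries were above their telencephalic partner. The fold change was 0.52 ± 0.29 in whole tissue (adjusted p = 0.429) and 1.16 ± 0.31 in sorted cells (adjusted p = 0.0237), the latter 0.85 (adjusted p = 0.2074) without telencephalic sorted replicate 1 and 1.14 (adjusted p = 0.1225) from the 4 sorted libraries alone. The macrophage marker sum moved with it in sorted cells and was also higher in whole tissue, and its part in the result was not tested.

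Slc39a9 and Slc39a13, zinc transporters of the Golgi and secretory pathway, ranked 13 and 7 of the 42 genes in CPM per kb and showed no call in any comparison. Slc39a9 stood at 112 and 97.1 CPM in telencephalic whole tissue, at 93.1 and 97.1 in hindbrain whole tissue, at 118 and 118 in telencephalic sorted cells and at 101 and 103 in hindbrain sorted cells. Slc39a13 stood at 82.6 and 85.95 and at 90.2 and 94.0 in whole tissue, and at 82.96 and 95.2 and at 98.9 and 90.6 in sorted cells, in the same order of regions. The hindbrain libraries of Slc39a9 were at or below their partners, while those of Slc39a13 were on both sides. The region effects were -0.14 ± 0.11 and -0.21 ± 0.11 for Slc39a9 and 0.13 ± 0.12 and 0.09 ± 0.12 for Slc39a13. The other importers without a region call were Slc39a1, Slc39a3, Slc39a5, Slc39a6, Slc39a7, Slc39a11, Slc39a12 and Slc39a14. The effects of the 12 importers not called in whole tissue, Slc39a4 and Slc39a8 included, spanned -0.89 to 0.52 there, and those of the 10 not called in sorted cells spanned -0.39 (Slc39a7, the endoplasmic reticulum importer ZIP7, adjusted p = 0.0771) to 0.23 in sorted cells.

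None of the 7 tested zinc exporters was called between regions, beside 5.79% of all tested genes in whole tissue and 15.2% in sorted cells. All of their region effects lay between -0.37 and 0.26. Slc30a4 (ZnT4) stood at 93.9 and 102 CPM in telencephalic and 83.1 and 98.5 in hindbrain whole tissue, and at 95.1 and 105 in telencephalic and 106 and 93.4 in hindbrain sorted cells. Its groups overlapped in both preparations. Slc30a9 stood at 88.4 and 80.7 in telencephalic and 81.2 and 77.6 in hindbrain whole tissue, and at 98.0 and 106.5 in telencephalic and 87.1 and 92.1 in hindbrain sorted cells. Slc30a1 (ZnT1), the exporter of the plasma membrane and itself a target of MTF1, was lower in hindbrain in 4 of 4 pairs, as were Slc30a7 and Slc30a9. The region effect of Slc30a1 was -0.24 ± 0.12 in whole tissue (adjusted p = 0.348) and -0.37 ± 0.12 in sorted cells (adjusted p = 0.0505). With the brain as a block the latter became a call (adjusted p = 0.03819). Slc30a5, Slc30a6, Slc30a7 and Slc30a10 make up the rest, with CPM between 14.05 and 80.4.

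All 3 metallothioneins had lower values in hindbrain in 4 of 4 pairs. Of the 3, 1 was called, in sorted cells, where 15.2% of all tested genes were called. Mt1 stood at 21.96 and 22.3 CPM in telencephalic and 14.8 and 15.2 in hindbrain whole tissue, and at 46.8 and 35.4 in telencephalic and 20.8 and 28.3 in hindbrain sorted cells. The groups did not overlap within a preparation. The region effect was -0.56 ± 0.19 in whole tissue (adjusted p = 0.123) and -0.74 ± 0.18 in sorted cells (1.68-fold lower, adjusted p = 0.014). Leaving out replicate 1 of telencephalic or of hindbrain sorted cells ended the sorted call (-0.52 and -0.54, adjusted p = 0.187 and 0.0693). Mt2 averaged 22.7 ± 0.35 CPM (SD, n = 2) in telencephalic and 13.5 ± 0.8 in hindbrain whole tissue, and 26.3 ± 2.7 and 17.8 ± 6.4 in sorted cells. Its effects of -0.75 ± 0.22 and -0.57 ± 0.21 missed the threshold (adjusted p = 0.0724 and 0.0939), and both passed it with the brain as a block (adjusted p = 0.045 and 0.04959). The hindbrain sorted replicates set the sorted Mt2 value, which was -0.245 without replicate 1 and -0.995 (adjusted p = 0.002085) without replicate 2. Mt3, the brain metallothionein, gave -0.57 ± 0.58 and -1.14 ± 0.39, the latter with adjusted p = 0.0676, or 0.03665 with the block. The sorted Mt3 value rested on telencephalic sorted replicate 1, without which it was -0.23 (adjusted p = 0.8194), and it was -1.68 (adjusted p = 0.005436) without telencephalic sorted replicate 2.

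In sorted cells both copper importers were higher in hindbrain and 1 of the 2 copper pumps was lower. Of the 4 genes, 1 was called higher in hindbrain whole tissue, and in sorted cells 2 were called higher and 1 lower. Of all tested genes 5.79% and 15.2% were called in these comparisons. Slc31a1 (CTR1) stood at 973 and 797 CPM in telencephalic and 1242 and 1227 in hindbrain whole tissue, and at 978 and 1089 in telencephalic and 1567 and 1408 in hindbrain sorted cells. Every hindbrain library was above every telencephalic one. The effect was 0.48 ± 0.12 in whole tissue (1.39-fold higher, adjusted p = 0.038) and 0.53 ± 0.12 in sorted cells (1.44-fold higher, adjusted p = 0.0121). The whole-tissue call was lost without any 1 of the 4 whole-tissue libraries or of the 2 telencephalic sorted ones, with values of 0.34 to 0.63 and adjusted p of 0.05103 to 0.3695. The sorted call ended when replicate 1 of either sorted group was left out (telencephalic 0.45, adjusted p = 0.125, and hindbrain 0.44, adjusted p = 0.05503).

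Slc31a2 (CTR2), a copper transporter of internal membranes, followed in sorted cells. Its CPM was 37.1 and 39.9 in telencephalic and 43.0 and 48.0 in hindbrain whole tissue, and 18.53 and 21.9 in telencephalic and 27.4 and 30.4 in hindbrain sorted cells. Hindbrain was above telencephalic in 4 of 4 pairs. The effects were 0.24 ± 0.14 (adjusted p = 0.46) and 0.52 ± 0.14 (adjusted p = 0.0288), and the sorted call was lost in the 4 sorted libraries alone and without telencephalic whole replicate 1 or 2, telencephalic sorted replicate 1 or hindbrain sorted replicate 2, with values of 0.40 to 0.52 and adjusted p of 0.05673 to 0.2459.

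Of the pumps, Atp7b was called between regions in sorted cells and Atp7a was not. Atp7a (the Menkes ATPase) was the fourth highest member per kb and stood at 623 and 589 CPM in telencephalic and 563 and 567 in hindbrain whole tissue, and at 665 and 802.5 in telencephalic and 883 and 744.5 in hindbrain sorted cells. Its region effects of -0.10 ± 0.12 and 0.15 ± 0.12 were not called. Atp7b (the Wilson ATPase) stood at 24.3 and 19.2 in telencephalic and 13.3 and 15.3 in hindbrain whole tissue, and at 27.7 and 26.7 in telencephalic and 15.4 and 18.6 in hindbrain sorted cells. No hindbrain library reached a telencephalic one. Its effect was -0.61 ± 0.17 in whole tissue (adjusted p = 0.0644) and -0.68 ± 0.17 in sorted cells (1.6-fold lower, adjusted p = 0.0175). The sorted call was lost with scaling by library totals (-0.48, adjusted p = 0.05903) and without telencephalic sorted replicate 1, telencephalic sorted replicate 2 or hindbrain sorted replicate 1 (values of -0.71 to -0.55, adjusted p of 0.06494 to 0.1153).

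**Figure D3:**
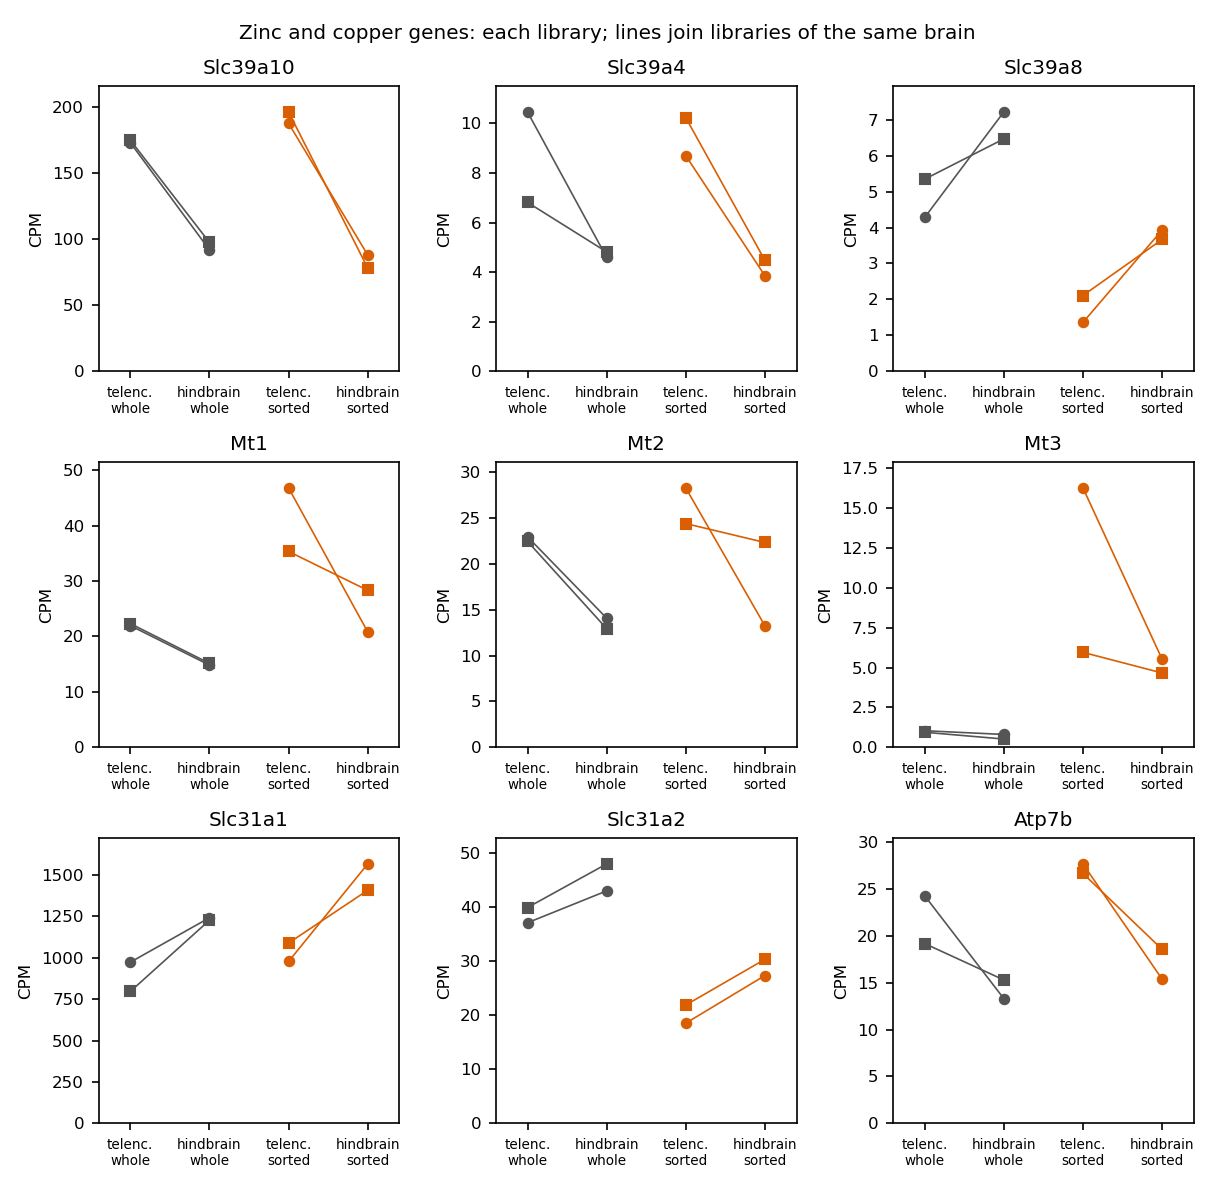
CPM in each of the 8 libraries for 9 zinc and copper genes, with lines joining the telencephalic and hindbrain libraries of 1 brain, grey for whole tissue and orange for sorted cells, circles for replicate 1 and squares for replicate 2. Lines fall from telencephalic to hindbrain for Slc39a10, Slc39a4, Mt1, Mt2, Mt3 and Atp7b and rise for Slc39a8, Slc31a1 and Slc31a2.

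Among the 3 genes of iron uptake, 1 was called between regions, in sorted cells, where 15.2% of all tested genes were called. Tfrc averaged 10.1 ± 0.02 CPM (SD, n = 2) in telencephalic and 12.6 ± 1.9 in hindbrain whole tissue, and 17.1 ± 1.1 and 23.2 ± 4.0 in sorted cells, with hindbrain higher in 4 of 4 pairs. The effects of 0.32 ± 0.19 and 0.44 ± 0.18 were not called (adjusted p = 0.479 and 0.125), and the latter was 0.25 without hindbrain sorted replicate 2. Slc11a2 (DMT1), which moves ferrous iron out of the endosome, averaged 39.4 and 34.2 CPM in whole tissue and 45.4 and 33.2 in sorted cells, telencephalic first. Its effects were -0.20 ± 0.15 and -0.45 ± 0.15, the latter with adjusted p = 0.0567, or 0.02597 with the brain as a block. Slc11a1 (NRAMP1), the metal transporter of macrophage phagosomes, had 1.53 and 2.94 CPM in telencephalic and 2.74 and 2.55 in hindbrain whole tissue, and 1.02 and 0.682 in telencephalic and 5.09 and 2.31 in hindbrain sorted cells. Its groups overlapped in whole tissue and not in sorted cells. The sorted effect of 2.08 ± 0.48 (4.24-fold higher, adjusted p = 0.0117) lost its call when telencephalic sorted replicate 1 (2.43, adjusted p = 0.05689), telencephalic sorted replicate 2 (1.85, adjusted p = 0.08166) or hindbrain sorted replicate 1 (1.39, adjusted p = 0.0695) was left out. All 10 macrophage markers were called higher in hindbrain than in telencephalic sorted cells, with a median of 2.26, and 1 of 10 in whole tissue, with a median of 0.586. None of the 10 was at 0 counts in any library, and the markers' part in the Slc11a1 difference was not tested.

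Of the 3 tested iron exit genes, 1 was called lower in hindbrain whole tissue (Heph), and 2 were called higher in hindbrain sorted cells (Slc40a1 and Cp). The shares of all tested genes called were 5.79% in whole tissue and 15.2% in sorted cells. Slc40a1 (ferroportin, the only known cellular iron exporter) stood at 13.6 and 15.5 CPM in telencephalic and 22.3 and 21.9 in hindbrain whole tissue, and at 8.77 and 7.5 in telencephalic and 33.8 and 15.9 in hindbrain sorted cells. Hindbrain was higher in 4 of 4 pairs, and the hindbrain sorted replicates lay far apart. The effect was 0.61 ± 0.28 in whole tissue (adjusted p = 0.304) and 1.60 ± 0.28 in sorted cells (3.04-fold higher, adjusted p = 0.00218). The sorted call held under all 15 alternatives but its size rested on 1 library: it was 0.95 (adjusted p = 0.004612) without hindbrain sorted replicate 1. The difference between the region effects was 0.99 ± 0.40 (adjusted p = 0.438) and 1.43 (adjusted p = 0.004499) without hindbrain sorted replicate 2, but 0.35 without hindbrain sorted replicate 1. The macrophage marker sum was 35 to 60 CPM in the low group and 176 to 212 in the high group of sorted cells, and its part was not tested.

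Heph (hephaestin, the membrane ferroxidase) was called in whole tissue and not in sorted cells. Its CPM was 82.3 and 70.96 in telencephalic and 52.5 and 43.2 in hindbrain whole tissue, and 53.8 and 58.7 in telencephalic and 49.0 and 45.3 in hindbrain sorted cells. Hindbrain was lower in 4 of 4 pairs. The effects were -0.68 ± 0.14 (1.6-fold lower, adjusted p = 0.00979) and -0.25 ± 0.14 (adjusted p = 0.253), and the difference between them was 0.43 ± 0.19 (adjusted p = 0.514). Leaving out telencephalic whole replicate 1 (-0.57, adjusted p = 0.172) or hindbrain whole replicate 2 (-0.55, adjusted p = 0.114) ended the call.

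Cp (ceruloplasmin, a copper-carrying ferroxidase) stood at 95.3 and 103 CPM in telencephalic and 70.4 and 77.2 in hindbrain whole tissue, and at 28.2 and 17.7 in telencephalic and 80.9 and 35.9 in hindbrain sorted cells. Whole-tissue libraries were lower in hindbrain and sorted libraries higher, in 2 of 2 pairs each. The effect was -0.43 ± 0.29 in whole tissue (adjusted p = 0.542) and 1.33 ± 0.30 in sorted cells (2.52-fold higher, adjusted p = 0.00983). The latter was 1.05 (adjusted p = 0.0979) without telencephalic sorted replicate 2 and 0.62 (adjusted p = 0.0651) without hindbrain sorted replicate 1. The difference between the region effects, 1.76 ± 0.41, missed the threshold (adjusted p = 0.0704) and passed it with the brain as a block (1.71, adjusted p = 0.000372), with scaling by library totals (1.92, adjusted p = 0.0456), with no filter on low counts (1.75, adjusted p = 1.618e-05) and without hindbrain sorted replicate 2 (2.23, adjusted p = 0.00047). It was 1.06 without hindbrain sorted replicate 1.

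Trf (transferrin, the iron carrier that choroid plexus and oligodendrocytes make in the brain) was the only member called in opposite directions. It stood at 83.9 and 88.9 CPM in telencephalic and 55.8 and 59.8 in hindbrain whole tissue, and at 35.8 and 28.7 in telencephalic and 55.5 and 44.0 in hindbrain sorted cells. Telencephalic whole tissue was the highest group and telencephalic sorted cells the lowest, and the regions did not overlap in either preparation. The effect was -0.58 ± 0.15 in whole tissue (1.49-fold lower in hindbrain, adjusted p = 0.0364) and 0.62 ± 0.15 in sorted cells (1.54-fold higher, adjusted p = 0.0137). The difference between these effects was 1.20 ± 0.21 (adjusted p = 0.0116). It lay between 1.03 and 1.38 when any 1 library was left out, and lost its call without telencephalic whole replicate 1 (1.24, adjusted p = 0.0664), telencephalic whole replicate 2 (1.16, adjusted p = 0.0973), hindbrain whole replicate 1 (1.15, adjusted p = 0.0503) or telencephalic sorted replicate 2 (1.05, adjusted p = 0.0664).

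The 2 Trf region calls themselves also leaned on single libraries. The whole-tissue call was lost without any 1 of the 4 whole-tissue libraries and with scaling by library totals, with values of -0.63 to -0.50 and adjusted p of 0.1176 to 0.2578. Leaving out telencephalic sorted replicate 2 (0.47, adjusted p = 0.128) or hindbrain sorted replicate 1 (0.44, adjusted p = 0.0793) ended the sorted call.

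Markers of other cell types moved with these iron genes in sorted cells. In whole tissue Trf and Cp had lower hindbrain values (-0.58 and -0.43) and Slc40a1 a higher one (0.61). The marker medians there were 0.586 (macrophage), 0.467 (mesenchymal), -0.054 (mural) and 0 (endothelial). Besides the 10 macrophage markers, 6 of 7 tested mesenchymal and 6 of 8 mural markers were called higher in hindbrain than in telencephalic sorted cells, with none lower. Of the 10 endothelial markers 4 were called higher and 1 lower, with a median of 0.796. Of the glial and progenitor markers 3 of 9 tested were higher, as were 3 of 8 cell cycle genes. For the difference between region effects 2 endothelial (Cdh5 and Emcn), 3 macrophage, 5 mural and 1 mesenchymal markers were called higher. Among all tested genes 1.34% were called for that difference. The 10 endothelial markers summed to 117 and 126 CPM in telencephalic and 160 and 162 in hindbrain sorted cells. The 8 mesenchymal markers summed to 1090 and 1279 CPM in telencephalic and 1484 and 1664 in hindbrain whole tissue, and to 834 and 866 in telencephalic and 1755 and 1347 in hindbrain sorted cells. Up to 1 mesenchymal marker, and no macrophage or mural marker, was at 0 counts in any library. Hindbrain sorted replicate 1, which was higher than replicate 2 for Cp, Slc40a1, Slc11a1 and Trf, also had the higher macrophage, mesenchymal and mural sums of the pair, but not the higher endothelial sum. Abundant genes weigh most in these sums, and single macrophage and mural markers went both ways. In replicates 1 and 2, Mrc1 had 1999 and 1232 counts but Cd68 had 266 and 390 and C1qc 564 and 626. Likewise Pdgfrb had 3115 and 2504 but Rgs5 had 475 and 786. The part of these cells in the differences of Trf, Cp and Slc40a1 was not tested.

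The ferritin genes and Ireb2 showed no region call. Fth1 (heavy chain) stood at 539.8 and 492 CPM in telencephalic and 515.5 and 466 in hindbrain whole tissue, and at 569 and 486 in telencephalic and 510.5 and 479 in hindbrain sorted cells. Its groups overlapped in every comparison, with effects of -0.07 ± 0.12 and -0.09 ± 0.12. Ftl1 (light chain) stood at 874 and 829.6 in telencephalic and 1061 and 785.5 in hindbrain whole tissue, and at 1419 and 1297 in telencephalic and 931 and 1357 in hindbrain sorted cells. The hindbrain replicates of Ftl1 were far apart in both preparations, and its effects were 0.12 ± 0.17 and -0.25 ± 0.17. Without hindbrain sorted replicate 2 the sorted value was -0.55 (adjusted p = 0.03299). Ireb2, which encodes iron regulatory protein 2, stood at 176 and 159.5 in telencephalic and 164 and 148 in hindbrain whole tissue, and at 197 and 188 in telencephalic and 185 and 162 in hindbrain sorted cells, with effects of -0.10 ± 0.12 and -0.15 ± 0.12. Fth1 and Ireb2 had lower values in hindbrain in 4 of 4 pairs. The Ireb2 groups overlapped in whole tissue and not in sorted cells, and neither gene was called (adjusted p from 0.437 to 0.849).

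**Figure D4:**
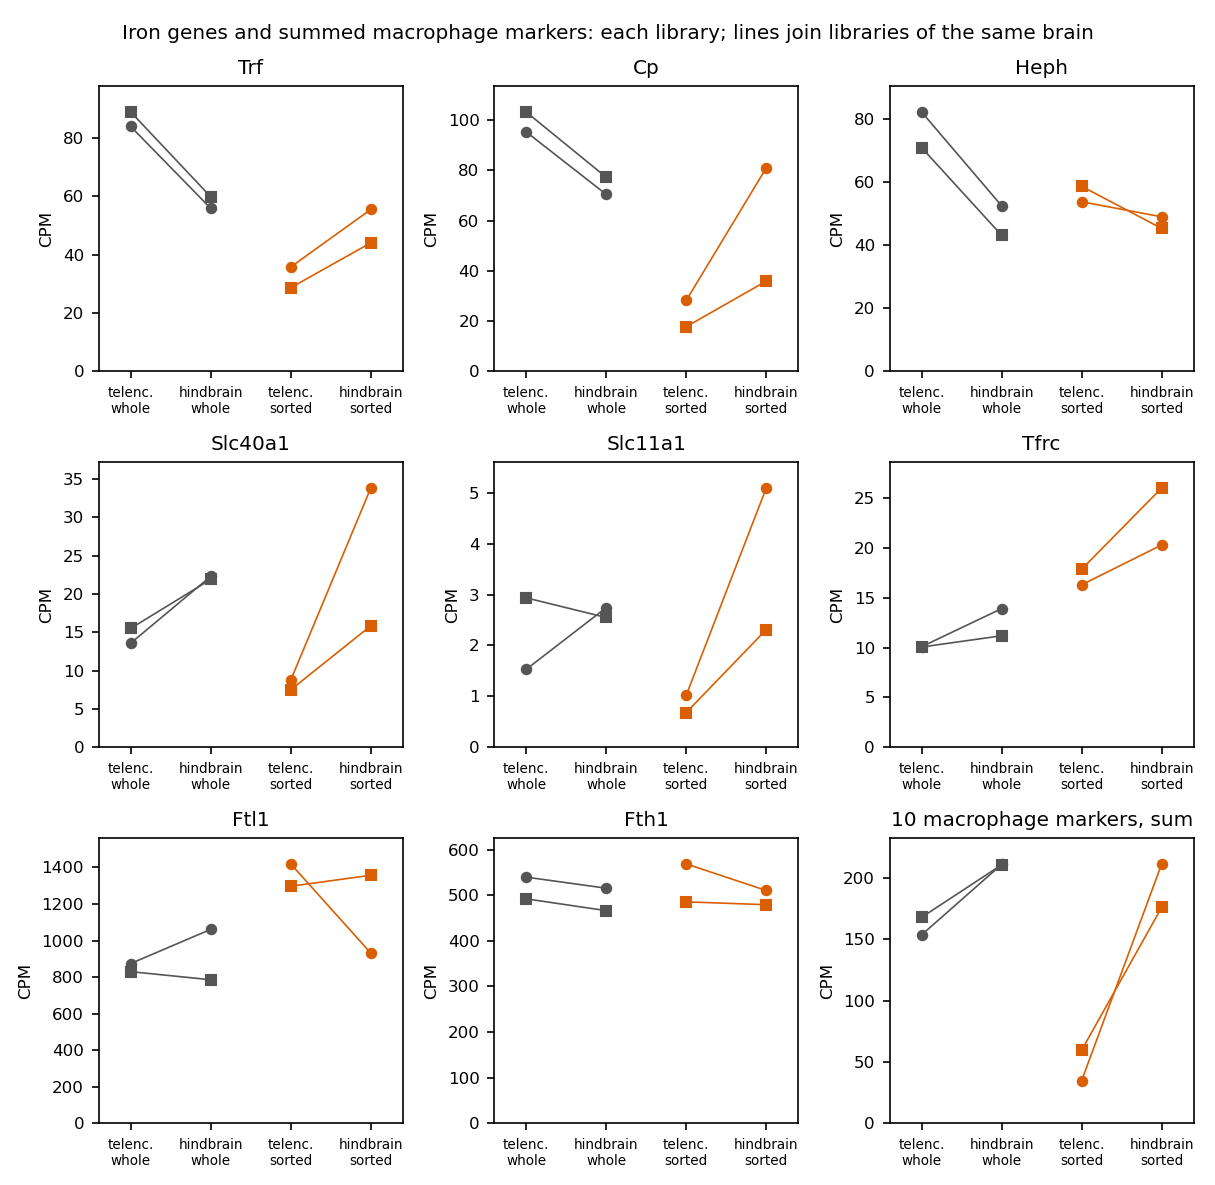
CPM in each of the 8 libraries for 8 iron genes and the sum of 10 macrophage markers, drawn as for the zinc and copper genes. The Trf and Cp lines fall in whole tissue and rise in sorted cells, Slc40a1 rises in both, Fth1 is nearly flat, and the macrophage sum is lowest in the 2 telencephalic sorted libraries.

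Sorted cells were then compared with whole tissue within each region. In telencephalic choroid plexus 11 of the 37 genes were called (6 higher and 5 lower in sorted cells), 29.7% against 22.4% of all tested genes. In hindbrain choroid plexus 8 were called (5 higher, 3 lower), 21.6% against 22.1%. The medians were 0.141 and 0.099, beside 0.015 and 0.009 for all genes. Scaling by library totals moved the median of all genes to -0.304 and -0.189, changed the share of called genes that were higher from 44.1% to 10.5% and from 46.3% to 20.1%, and gave 3 higher and 8 lower members in telencephalic and 4 and 4 in hindbrain choroid plexus. The same scaling moved that share from 57.6% to 70.7% between regions in whole tissue and from 59.7% to 83.5% in sorted cells, where it moved the median of all genes to 0.201 and gave 8 higher and 3 lower members. The telencephalic count was 6 without telencephalic whole replicate 1 or 2 or telencephalic sorted replicate 1, and the hindbrain count fell to 4 or 2 when replicate 1 or replicate 2 of hindbrain whole tissue was left out. Both comparisons share libraries with the region comparisons.

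The genes called in both regions were 6: Mt1, Mt3, Slc39a12 and Tfrc were higher in sorted cells, and Slc31a2 and Slc39a8 were lower. Mt3 had the widest gap, with 17 and 9 counts in telencephalic and 20 and 11 in hindbrain whole tissue, and 430 and 96 in telencephalic and 152 and 127 in hindbrain sorted cells. In CPM its means were 0.992 and 0.663 in whole tissue and 11.1 and 5.09 in sorted cells. The fold changes were 3.48 ± 0.48 (11.2-fold, adjusted p = 0.0003) and 2.92 ± 0.47 (7.55-fold, adjusted p = 0.00107), and both calls held under all 14 alternatives. The replicates of telencephalic sorted cells differed widely (16.3 and 5.95 CPM), and both were above every whole-tissue library.

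Slc39a12 (ZIP12, a zinc importer of the nervous system) rose from 60.2 ± 7.8 CPM (SD, n = 2) to 109 ± 17 in telencephalic choroid plexus and from 54.4 ± 6.5 to 97.2 ± 7.8 in hindbrain. The fold changes of 0.86 ± 0.15 and 0.84 ± 0.15 (adjusted p = 0.00146 and 0.00183) held under all 14 alternatives, the first at 0.55 with scaling by library totals. Its region effects of -0.14 ± 0.15 and -0.17 ± 0.14 were not called. Mt1 rose by 0.90 ± 0.18 (adjusted p = 0.00442) and 0.71 ± 0.18 (adjusted p = 0.0152), while Mt2 gave 0.22 ± 0.21 and 0.40 ± 0.21 and was not called. The Mt1 call was lost without telencephalic whole replicate 1 or telencephalic sorted replicate 1 in the first region (adjusted p of 0.05493 and 0.06675) and without hindbrain whole replicate 1 or 2 or hindbrain sorted replicate 2 in the second (adjusted p of 0.07005 to 0.08216). Tfrc rose by 0.76 ± 0.19 (1.69-fold, adjusted p = 0.0141) and 0.88 ± 0.18 (1.84-fold, adjusted p = 0.00479). Its telencephalic call was lost with scaling by library totals and without telencephalic whole replicate 1 or 2 or telencephalic sorted replicate 2 (adjusted p of 0.07453 to 0.1076), and its hindbrain call without hindbrain whole replicate 2 (adjusted p = 0.0585).

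Slc31a2 fell by 0.93 ± 0.15 in telencephalic (adjusted p = 0.000722) and by 0.66 ± 0.14 in hindbrain choroid plexus (adjusted p = 0.00588), the latter losing its call without hindbrain whole replicate 2 (adjusted p = 0.0546). Slc39a8 fell by 1.49 ± 0.32 (adjusted p = 0.00548) and by 0.85 ± 0.28 (adjusted p = 0.0475). The first was lost without telencephalic whole replicate 2 or telencephalic sorted replicate 1 (adjusted p of 0.05343 and 0.06025) and the second under 8 of 14 alternatives (adjusted p of 0.05882 to 0.2196). In each case every sorted library was below every whole-tissue library of its region.

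Cp, Trf, Heph, Ftl1 and Slc30a10 were called in telencephalic and not in hindbrain choroid plexus, and Atp7a and Slc30a1 in hindbrain and not in telencephalic. The difference between the regions was not called for Heph, Ftl1, Slc30a10, Atp7a or Slc30a1 (adjusted p from 0.514 for Heph to 0.893 for Slc30a1). Cp fell by 2.10 ± 0.31 (4.28-fold, adjusted p = 0.000441) from 99.3 ± 5.6 to 23.0 ± 7.4 CPM, beside -0.34 ± 0.29 in hindbrain. Trf fell by 1.42 ± 0.15 (2.67-fold, adjusted p = 3.455e-05) from 86.4 ± 3.5 to 32.2 ± 5.0 CPM, beside -0.22 ± 0.14 in hindbrain. Both calls held under all 14 alternatives, and the test of the difference between regions is the one given above for each gene. Heph gave -0.45 ± 0.14 (adjusted p = 0.0328), a call lost without any 1 of the 4 telencephalic libraries (adjusted p of 0.06475 to 0.2751). Ftl1 rose by 0.67 ± 0.17 (adjusted p = 0.0159) from 852 ± 31 to 1358 ± 86 CPM, and lost its call with scaling by library totals and without telencephalic whole replicate 1 or 2 or telencephalic sorted replicate 1 (adjusted p of 0.08643 to 0.1303). Slc30a10, a manganese exporter of the zinc exporter family, gave 0.49 ± 0.16 (adjusted p = 0.0474), from 14.8 to 20.8 CPM, and lost its call under 10 of 14 alternatives. In hindbrain, Atp7a gave 0.53 ± 0.12 (adjusted p = 0.0104), from 565 to 814 CPM, lost with scaling by library totals and without hindbrain whole replicate 1 or 2 (adjusted p of 0.05299 to 0.1327). Slc30a1 gave -0.43 ± 0.12 (adjusted p = 0.019), from 64.0 to 47.5 CPM, lost in the 4 hindbrain libraries alone and without hindbrain whole replicate 1 or 2 or hindbrain sorted replicate 1 (adjusted p of 0.07353 to 0.0872).

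**Figure D5:**
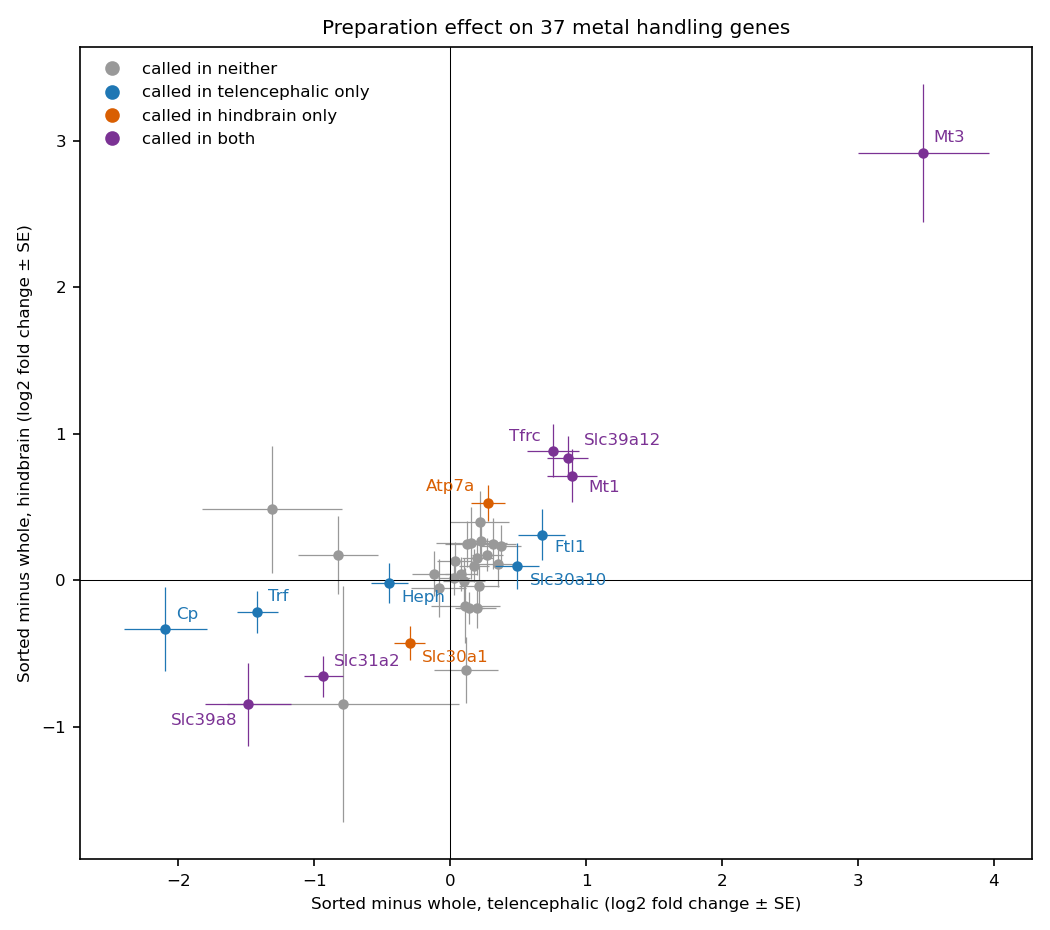
Sorted minus whole log2 fold change in telencephalic (x axis) and hindbrain (y axis) choroid plexus for the 37 tested genes, with bars of 1 standard error and colours for the comparisons in which a gene was called. Mt3 stands alone at the upper right, Mt1, Slc39a12 and Tfrc lie near 0.8 on both axes, and Cp and Trf lie far to the left with hindbrain values near 0.

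Other lists moved between preparations too. Of 12 genes of the early stress and heat shock response, 9 were higher in telencephalic and 10 in hindbrain sorted cells, with medians of 2.603 and 3.238, and 10 were higher in hindbrain than in telencephalic sorted cells. Mt1 and Mt2 respond to stress and metals, and of these Mt2 was not called between preparations (0.22 and 0.40). Mt1, Mt2 and Mt3 had lower values in hindbrain than in telencephalic sorted cells (-0.74, -0.57 and -1.14). The part of handling in the rise of Mt1 and Mt3 was not tested. In the telencephalic comparison 8 of 10 macrophage markers, 5 of 7 mesenchymal and 7 of 8 mural markers were lower in sorted cells, beside the lower Cp and Trf. In hindbrain these counts were 2, 0 and 3. Red cell precursors take up much iron through Tfrc. The 7 erythroid markers summed to 27.8 to 65.6 CPM in whole tissue and 7.71 to 17.8 in sorted cells, and Hba-a1 and Hbb-b1 were at 0 counts in all 8 libraries. Of the 5 tested, the telencephalic comparison had 2 lower, while in the hindbrain one 3 were lower and 1 was higher. The higher one was the embryonic globin gene Hbb-y, with 6 and 3 counts in hindbrain whole tissue and 158 and 172 in hindbrain sorted cells (4.91, adjusted p = 0.0001771). Tfrc was higher in sorted cells (0.76 and 0.88), where the erythroid sums were lower. The part of erythroid cells in the Tfrc difference was not tested.

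A further list of 55 genes of metal handling, 50 of them tested, held regulators, chaperones and enzymes that use metals. In whole tissue 8 of these were higher and 2 lower in hindbrain, in sorted cells 8 and 7, and 3 and 1 were called for a difference between the region effects. As shares of the 50 genes these are 20%, 30% and 8%, beside 5.79%, 15.2% and 1.34% of all tested genes. The list's medians of 0.074 and -0.001 in the region comparisons stood beside 0.005 and -0.001 for all genes. Sod3, the extracellular copper and zinc superoxide dismutase, averaged 19.6 ± 0.62 CPM (SD, n = 2) in telencephalic and 59.0 ± 3.7 in hindbrain whole tissue, and 6.57 ± 0.53 and 45.2 ± 2.8 in sorted cells. It was higher in hindbrain by 1.59 ± 0.14 (adjusted p = 3.03e-05) and 2.79 ± 0.15 (adjusted p = 3.831e-07). Hmox1, which releases iron from heme, was higher by 1.46 ± 0.18 and 1.99 ± 0.18, with 9.4 and 25.9 CPM in whole tissue and 10.8 and 42.8 in sorted cells. Both are also expressed outside epithelium, and the part of the macrophage, mural and mesenchymal markers was not tested.

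In whole tissue Lox, a copper-dependent enzyme that cross-links collagen, was lower in hindbrain (-1.26 ± 0.15, adjusted p = 0.000251) and Lcn2, which binds iron-carrying siderophores, was higher (4.16 ± 0.52, adjusted p = 0.000394). Lcn2 had 6 and 8 counts in telencephalic and 322 and 151 in hindbrain whole tissue, and all 5 tested neutrophil markers were also called higher there. In sorted cells Trfr2 (transferrin receptor 2, as the table spells it) was higher in hindbrain (1.92 ± 0.30, adjusted p = 0.00107). Atox1, the chaperone that hands copper to Atp7a and Atp7b, was lower (-1.07 ± 0.17, adjusted p = 0.00108), from 54.6 ± 12 to 26.1 ± 4.3 CPM, while its whole-tissue value was -0.18 ± 0.17. The difference between these Atox1 effects was -0.89 ± 0.24 (adjusted p = 0.1328).

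Between preparations 10 of the 50 genes were higher and 5 lower in telencephalic sorted cells, and 6 and 6 in hindbrain, which is 30% and 24% beside 22.4% and 22.1% of all tested genes. With scaling by library totals these became 1 and 14, and 3 and 10. Steap4, a metal reductase, fell by 3.37 ± 0.25 and 1.61 ± 0.23, from 56.2 to 5.5 CPM in telencephalic and from 36.1 to 11.8 in hindbrain choroid plexus. The mitochondrial iron importer Slc25a37 fell by 1.51 ± 0.14 and 2.17 ± 0.14 and Fech, the last enzyme of heme synthesis, by 0.81 ± 0.12 and 0.98 ± 0.12. Both are abundant in red cell precursors, whose marker sum was lower in the sorted libraries while Hbb-y was higher in the hindbrain ones, and the part of these cells was not tested. In telencephalic cells Sod3 fell by 1.58 ± 0.15 and Lox by 1.43 ± 0.15, and the copper-binding prion protein gene Prnp rose by 1.01 ± 0.17. In hindbrain cells the iron chaperone gene Pcbp2 rose by 0.60 ± 0.10, Lcn2 fell by 2.32 ± 0.41 and Tmprss6, a protease that restrains hepcidin, rose by 1.36 ± 0.27. The Tmprss6 call was lost without hindbrain whole replicate 1 (1.17, adjusted p = 0.05156).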

How the data were processed

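The authors deposited 1 table of raw read counts, by gene symbol, for 8 libraries. Per the labels' protocols, the RNA was pre-amplified with a NuGEN Ovation kit before TruSeq v2 paired-end library preparation, with no strand mark or molecular identifier, so reads of overlapping genes are mixed. Alignment to mm9 with TopHat2 2.0.4 on Bowtie2 2.0.5, after CASAVA 1.8.2, and counting with HTSeq are named in the submitters' processing notes, as is DESeq 1. Annotation and strand setting: not given in the sources used here.

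Genes passing filterByExpr (minimum count 10, minimum total 15) were fitted with edgeR 4.0.16 (R 4.3.3, limma 3.58.1) over 4 group means and all 8 libraries, with TMM scaling and quasi-likelihood F tests. Adjusted p values are Benjamini-Hochberg over 15698 genes. Regions are paired within brains by the design text. The differences between replicates correlated only weakly between the regions (r = 0.19 whole, 0.14 sorted, across genes). The brain as a block was an alternative, as were DESeq2 1.42.0, other scalings, no filter, fewer libraries and, chosen after seeing the data, leaving out Rn45s and Ttr. Members and lists were chosen with earlier results of these data known. Per-library values are given for members called between regions and the 10 most abundant. Other metal genes are named by adjusted p, up to 4 per region and 6 per preparation comparison. Of 160 list symbols 158 were found, 4 under older names. Sequences come from GENCODE M21 and RefSeq.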

Additional observations from a re-analysis of the deposited data

Results flagged for a closer look

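For Trf the region effect in sorted cells exceeded that in whole tissue by 1.20 ± 0.21 on the log2 scale (adjusted p = 0.0116, edgeR's quasi-likelihood test of the difference). It stands out because the regions differed in opposite directions in the 2 preparations: hindbrain was lower in 2 of 2 whole-tissue pairs and higher in 2 of 2 sorted pairs. The mesenchymal, mural, macrophage and endothelial marker sums were also lowest in telencephalic sorted cells. In whole tissue, where Trf was lower in hindbrain, the macrophage sums were 154 and 168 CPM in telencephalic and 211 and 211 in hindbrain. The mesenchymal sums there were 1090 and 1279 in telencephalic and 1484 and 1664 in hindbrain libraries. The mural and endothelial sums of the regions overlapped in whole tissue. The part of these markers was not tested.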

How the results depend on the processing

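No call of a member changed direction under any alternative. Over the members' single-gene results 2514 values kept their side of the threshold, 85 lost it and 62 gained it. Members called between regions in whole tissue numbered 7 with no filter on low counts and 10 in the 4 whole-tissue libraries alone, against 4. Over all genes the same comparison gave 1215 calls with no filter, against 909. For the difference of region effects 2 members were called with library totals, with no filter and with the replicate block, against 1. Over all genes the 4 libraries of a comparison alone gave 1587 called between regions in whole tissue (909 in all 8), 1460 in sorted cells (2383) and 2236 between preparations in hindbrain (3472). The difference of region effects gave 335 with DESeq2, 441 with no filter and 337 with the replicate block (211). The causes were not tested, apart from the fewer libraries and the removed filter that those settings consist of.

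Leaving out 1 library at a time gave 1 to 9 members in whole tissue, 5 to 14 in sorted cells, 0 to 3 for the difference, 6 to 13 between preparations in telencephalic and 2 to 9 in hindbrain choroid plexus. For all genes these ranges were 316 to 1341, 1051 to 3253, 58 to 473, 1519 to 4501 and 1691 to 3873. A group left with 1 library is assumed to vary like the other groups. The replicate block, which pairs the regions of a brain, raised the members called to 5 in whole tissue (gaining Mt2) and 15 in sorted cells (gaining Mt2, Mt3, Slc11a2 and Slc30a1), and lost none. Calls over all genes rose with it too, from 909 to 1195 in whole tissue and from 2383 to 2943 in sorted cells. The block could not be fitted between preparations, which share no brain. Depth limits the 5 untested genes and those near 1 CPM.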
